A study of Mus musculus with 12 samples.

Results

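Mature neutrophils are the short-lived blood granulocytes that leave the vessels first when tissue is injured. In the meninges of newborn mice they were a rare population, defined here as single cells with at least 200 genes, at most 10% mitochondrial UMIs (unique molecular identifiers, which count captured RNA molecules), at least 100 UMIs of S100a8 and S100a9 together, at least 5 UMIs of Retnlg and fewer than 20 UMIs of Camp, Ltf and Ngp together. Of 21689 kept cells, 152 met this definition: 43 in HI 1 and 61 in HI 2, against 13 in naive 1 and 35 in naive 2. HI stands for hypoxia-ischemia, a model of injury to the newborn brain in which both blood flow and oxygen are reduced.

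The mice were C57Bl/6j at postnatal day 4, either 6 h after HI or naive, and no sham-operated group was among the samples, so that effects of surgery or handling cannot be told apart from those of HI. Each gene expression library pooled the meninges of 12 mice, 6 of them male and 6 female, and was prepared with a 10x Genomics kit that reads the 5' end of transcripts. There were 2 HI and 2 naive pools, processed in 2 runs of 1 HI and 1 naive pool each, and each pool also had a B-cell and a T-cell receptor library. Which number belongs to which run is not stated, and p-values measure only the spread between these pools.

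Neutrophils are made in the bone marrow and fill their granules in a fixed order: azurophil granules in promyelocytes, specific granules with Ltf, Camp, Ngp and Lcn2 in myelocytes, and gelatinase and secretory granules in band and segmented cells. A mature neutrophil has stopped transcribing most early granule genes, holds little RNA, and keeps large amounts of the calcium-binding proteins S100A8 and S100A9, the chemokine receptor CXCR2 and the granulocyte colony-stimulating factor receptor. When activated in tissue it can make its own chemokines, interleukin-1 beta and protease inhibitors, and it is known to enter the brain's coverings early after ischaemia.

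The 4 gene expression libraries held 51986763 to 68543046 UMIs and 4213 to 6421 barcodes, nearly all of which were kept. The deposited barcodes start at 3633 UMIs in HI 1 and 3263 in HI 2, against 3629 in naive 1 and 3414 in naive 2. Pairs of libraries shared 29 to 55 barcode sequences. No barcode was a mature neutrophil in more than 1 library, and 4 member barcodes also occurred in another library.

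The members carried the genes that go with their label. The leading genes by level were S100a9 at a mean of 94854 CPM (UMIs of the gene per 1000000 UMIs of the members) over the 4 libraries and S100a8 at 78841 CPM, which the definition used, followed by the stefin A cluster, a family of cysteine protease inhibitors, with Stfa1 at 33208 CPM and BC100530 at 26287 CPM. By fold over all other kept cells the leading genes included Retnlg (151-fold), Gm5416 (128-fold), the protease inhibitor Slpi (122-fold), the aspartic protease gene Asprv1 (113-fold), the chemokine-like Prok2 (90.9-fold), Lrg1 (67.4-fold), the receptor Cxcr2 (62.9-fold) and the interleukin-1 decoy receptor Il1r2 (60.0-fold). These folds describe a population chosen by its own RNA and carry no test. Ly6g, the surface protein used to sort mouse neutrophils, was low at 62 UMIs over all HI members and 28 over all naive members, and it was seen in 34.9% of HI 1 and 26.2% of HI 2 members, against 30.8% of naive 1 and 20% of naive 2 members. No macrophage had a UMI of Ly6g.

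Several genes of earlier granule stages were lower in the members than in immature neutrophils. Mature neutrophils had 8.41 CPM of Ltf, 98.7 CPM of Camp and 241 CPM of Ngp, against 9192, 28891 and 35754 CPM in the 243 immature neutrophils, the cells that met the same S100 and mitochondrial limits but had 20 or more UMIs of these 3 genes. The definition used those 3 genes, but not Fcnb, a lectin of early granules, which was at 0 CPM in mature and 272 CPM in immature neutrophils, nor Chil3, a chitinase-like protein, at 73.4 and 4260 CPM, nor Cybb, the catalytic subunit of the oxidase that makes superoxide, at 86.8 and 868 CPM. The mature cells had more of Il1b (25.5-fold), the adhesion molecule Amica1 (22.3-fold), the inflammasome gene Nlrp3 (17.4-fold) and the chemokine Ccl6 (17.0-fold). These genes outside the definition were named for their large folds between the classes in these data, which carry no test. Mmp8, a specific granule gene that the definition did not use, hardly differed, at 1257 CPM in mature and 1341 CPM in immature neutrophils. The azurophil granule genes Mpo, Elane, Ctsg and Ms4a3 had no UMI in any member.

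The edges of the definition differed in how sharply they divided the cells. The lowest S100a8 and S100a9 sums inside were 211, 296 and 383 UMIs, and 1 cell with 89 UMIs was kept out by that limit alone. The Retnlg limit alone kept out 77 cells, the nearest of which had 4 UMIs, while the lowest inside had 5. The limit on Camp, Ltf and Ngp alone kept out 170 cells, the nearest with 20 and 22 UMIs, while the highest inside had 19 and 18, and this limit therefore divides a continuum. Within the members 15 of 43 in HI 1 and 24 of 61 in HI 2, against 11 of 13 in naive 1 and 31 of 35 in naive 2, had no UMI of the 3 granule genes.

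Some members also held RNA of macrophages, the most common cell of these libraries. UMIs of the complement genes C1qa, C1qb and C1qc, which macrophages make, reached 5 or more in 3 members of HI 1 and 5 of HI 2, against 2 of naive 1 and 3 of naive 2. These 13 cells were large and held 28.9% of all member UMIs in HI 1 and 20.3% in HI 2, against 37.8% in naive 1 and 16.5% in naive 2. Summed over the 10 macrophage markers, the members had 8707 CPM in HI 1 and 6661 CPM in HI 2, against 11976 CPM in naive 1 and 4267 CPM in naive 2. Without the 13 cells the sums were 99.5 and 401 CPM in HI 1 and HI 2, against 230 and 382 CPM in naive 1 and naive 2, and Cd163 and Ms4a7 were at 0. The 6 microglia markers summed to 1914 and 1038 CPM in HI 1 and HI 2, against 1093 and 85.9 CPM in naive 1 and naive 2, and without the 13 cells to 91.2 and 100 CPM in HI 1 and HI 2, against 16.4 and 29.4 CPM in naive 1 and naive 2. Of the 7 members among the highest doublet scores, all 7 were among these 13 cells. One further cell, in naive 1, had 1052 UMIs of the antigen-presenting genes H2-Aa, H2-Ab1, H2-Eb1 and Cd74, where no other member without C1q had more than 2, and it held 32.6% of the remaining UMIs of that library. Markers of basophils and erythroid cells were at 0 in every library, and those of T, NK and B cells, eosinophils and platelets summed to at most 36.8 CPM. Neural markers summed to 121 and 130 CPM in HI 1 and HI 2, against 133 and 246 CPM in naive 1 and naive 2, and classical monocyte markers to 280 and 500 CPM in HI 1 and HI 2, against 521 and 221 CPM in naive 1 and naive 2, with Ccr2 and Vcan at 0. The 10 immature neutrophil markers summed to 6475 and 10209 CPM in HI 1 and HI 2, against 787 and 1363 CPM in naive 1 and naive 2. Most of each sum was Lcn2, at 6006 and 9461 CPM in HI 1 and HI 2, against 685 and 927 CPM in naive 1 and naive 2. Camp, Ltf and Ngp, which the definition used, are among the rest, and Ms4a3, Elane, Mpo and Ctsg were at 0. Without the 13 cells, the 6 markers outside the definition other than Lcn2 summed to less in HI than in naive, as given below. Results are therefore given for all members and for the members without the 13 cells, and the class II cell is left out in addition where it mattered.

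The first comparison asked whether mature neutrophils were more common 6 h after HI. They made up 1.02% of kept cells in HI 1 (Clopper-Pearson 95% interval 0.740 to 1.37) and 0.952% in HI 2 (0.729 to 1.22), against 0.254% in naive 1 (0.135 to 0.434) and 0.589% in naive 2 (0.410 to 0.818). Both HI libraries stood above both naive libraries. The mean share was 0.986% ± 0.0490 in HI and 0.421% ± 0.237 in naive (SD, n = 2 each), a ratio of 2.34. An exact 2-sided permutation test of 2 against 2 libraries gave p = 0.333, the smallest it can give, so the difference cannot pass a threshold of 0.05 in this design. Intervals cover counting error only.

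The higher share did not come with a fixed balance of mature and immature cells. Immature neutrophils numbered 130 in HI 1 and 57 in HI 2, against 20 in naive 1 and 36 in naive 2. Mature cells were 24.9% of all neutrophils in HI 1 and 51.7% in HI 2, against 39.4% in naive 1 and 49.3% in naive 2, so the groups overlapped in this ratio (exact permutation p = 1).

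Members also held more RNA after HI, and this bears on how many of them could be seen. Their median UMI total was 6260 in HI 1 and 5127 in HI 2, against 4132 in naive 1 and 4046 in naive 2, a ratio of 1.39 between the group means, while the same ratio was 1.04 in non-classical monocytes, 0.976 in macrophages and 1.03 in immature neutrophils. The groups of members did not overlap in this median (exact permutation p = 0.333, the smallest possible). The median number of genes was nearly equal, at 1164 and 1099 in HI 1 and HI 2, against 1130 and 1168 in naive 1 and naive 2. Of the members, 20.9% in HI 1 and 11.5% in HI 2, against 69.2% in naive 1 and 60.0% in naive 2, lay within 25% of the lowest UMI total of their library, where 3.71% to 5.18% of all kept cells lay. A larger number of mature neutrophils and a larger RNA content that lifts more of them over this floor cannot be told apart from the deposited barcodes. Above 4000 UMIs the share was 0.894% and 0.874% in HI 1 and HI 2, against 0.178% and 0.332% in naive 1 and naive 2, a ratio of 3.47. Above 5000 UMIs it was 0.835% and 0.587% in HI 1 and HI 2, against 0.0624% and 0.112% in naive 1 and naive 2, a ratio of 8.17.

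**Figure D1:**
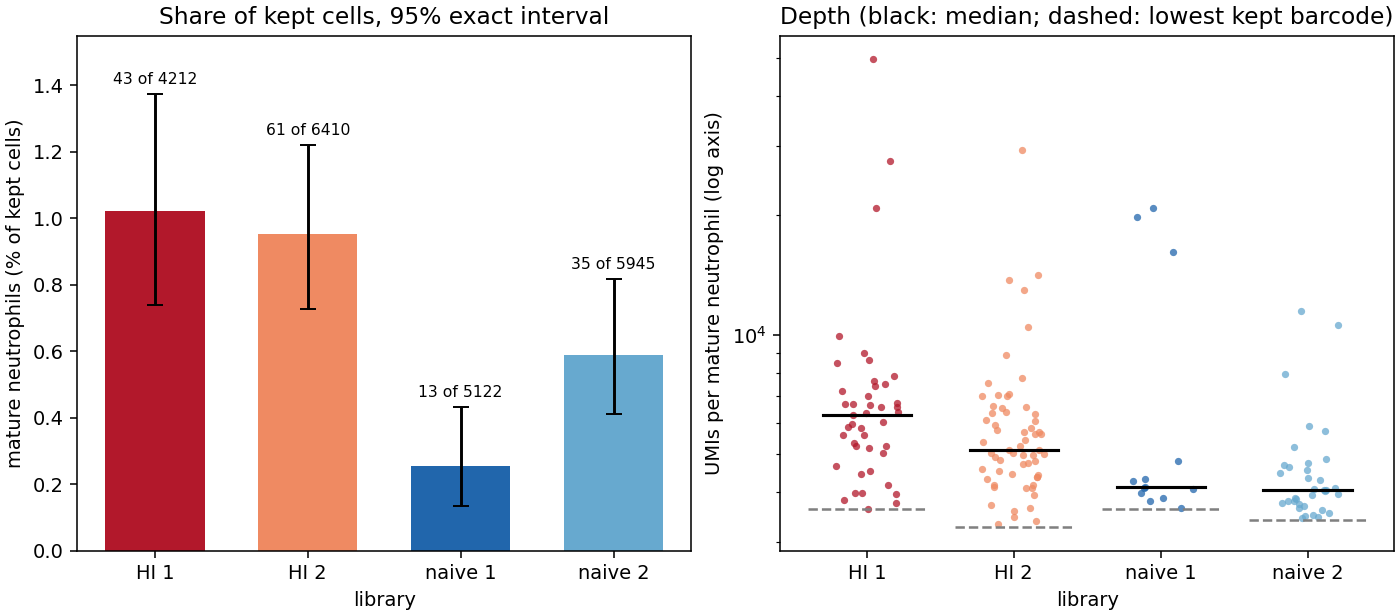
Share of kept cells that were mature neutrophils in each library (left, percent, bars are Clopper-Pearson 95% intervals) and UMI total of each member (right, log axis, black bars at the median and dashed lines at the lowest kept barcode of the library). Both HI libraries, at 1.02% and 0.952%, lie above both naive libraries, at 0.254% and 0.589%, and most naive members lie close to the lowest UMI total of their library.

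The genes of the definition itself are given without a test. Per member, S100a8 and S100a9 together had a median of 1476 UMIs in HI 1 and 1372 in HI 2, against 810 in naive 1 and 794 in naive 2. As a part of all UMIs of a cell this was a median of 25.1% and 27.9% in HI 1 and HI 2, against 20.3% and 20.5% in naive 1 and naive 2. Retnlg, a resistin-like secreted protein, had a median of 99 and 103 UMIs in HI 1 and HI 2, against 21 and 48 UMIs in naive 1 and naive 2. Scaled to CPM over all members, Retnlg was at 14277 in HI 1 and 18009 in HI 2. It was at 7654 CPM in naive 1 and 16496 CPM in naive 2, so that HI 1 lay below naive 2. Asprv1, a label marker that the definition did not use, was at 1294 CPM in HI 1 and 1839 CPM in HI 2, against 1400 CPM in naive 1 and 1897 CPM in naive 2, so that its groups overlapped.

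HI was then compared with naive gene by gene, on counts summed over the members of each library (edgeR's quasi-likelihood test with Benjamini-Hochberg adjustment over all genes tested, threshold 0.05). With all members, 2 of 2741 genes passed (0.073%), both higher in HI, and 311 had an unadjusted p under 0.05. They were Wfdc17 and Ccl4. The count depended on single libraries: it was 22 without HI 1, 43 without HI 2, 281 without naive 1 and 249 without naive 2. DESeq2 called 45 genes on the same sums.

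Wfdc17 encodes a small secreted whey acidic protein related to protease inhibitors. It was at 5095 CPM in HI 1 and 6911 CPM in HI 2, against 30.7 CPM in naive 1 and 61.4 CPM in naive 2, or 4325 UMIs in all HI members and 13 UMIs in all naive members. Its log2 fold change was 7.26 ± 0.70 (SE, edgeR adjusted p = 0.00858). The change ran through nearly the whole population: the median member had 26 UMIs in HI 1 and 35 in HI 2, against 0 in naive 1 and 0 in naive 2, and the highest naive member had 2. At an equal depth of 3000 UMIs a cell, Wfdc17 was seen in 90.7% of members in HI 1 and 91.8% in HI 2, against 15.4% in naive 1 and 20% in naive 2. Without thinning the shares were 93.0% and 96.7% in HI 1 and HI 2, against 23.1% and 20% in naive 1 and naive 2. In macrophages the thinned share was 14.2% and 9.36% in HI 1 and HI 2, against 9.21% and 7.59% in naive 1 and naive 2. In naive 1 the Clopper-Pearson intervals were 1.92% to 45.4% for members and 8.32% to 10.2% for macrophages. In naive 2 they were 8.44% to 36.9% for members and 6.85% to 8.39% for macrophages. Cells of a library are not replicates, so these intervals cover counting error only and do not test the classes against each other.

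Ccl4, a chemokine that draws monocytes and lymphocytes, passed the same test on very different data. It had 784 CPM in HI 1 and 838 CPM in HI 2, against 10.2 CPM in naive 1 and 0 CPM in naive 2, and the summed HI counts were 212 times the 1 naive UMI after scaling (Clopper-Pearson interval 37.9 to 8384). That interval counts each UMI as independent, so it leaves out the spread between cells and between pools. A single cell held 89.1% of the Ccl4 UMIs in HI 1, and a single cell held 84.4% in HI 2. The HI 1 cell had 285 UMIs of C1q, so it was among the cells with macrophage RNA. The HI 2 cell had 0. Without the cells with C1q, Ccl4 had 116 CPM in HI 1 and 1052 CPM in HI 2, against 0 CPM in both naive libraries. At 3000 UMIs a cell Ccl4 was seen in 14% and 3.28% of members in HI 1 and HI 2, against 7.69% and 0% in naive 1 and naive 2, where 0 of 35 cells allows up to 8.57%, and in 0.669% to 1.53% of macrophages. Ccl4 therefore describes a few cells and Wfdc17 most of them.

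**Figure D2:**
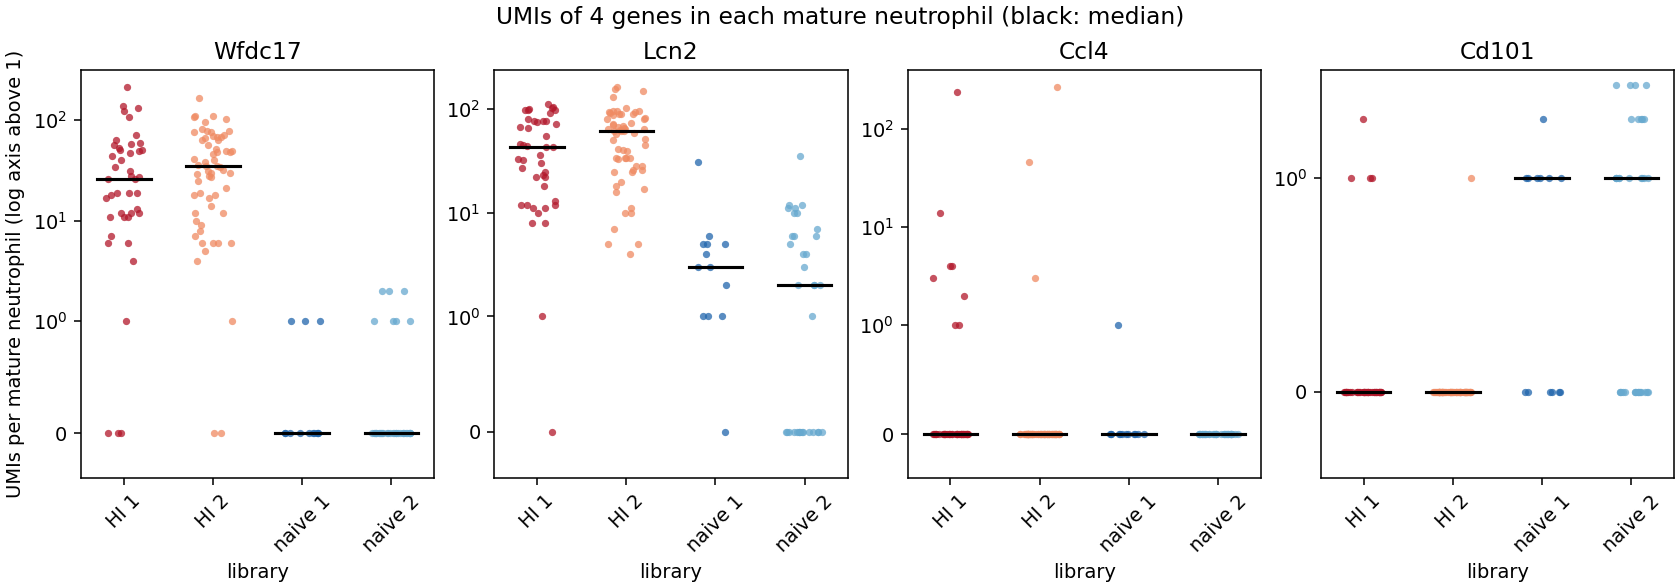
UMIs per member of Wfdc17, Lcn2, Ccl4 and Cd101, with 1 point per cell, a black bar at the median of each library, and an axis that is linear below 1 UMI and logarithmic above. Wfdc17 is at 26 and 35 UMIs in the median HI 1 and HI 2 member and at 0 in the median naive member, whereas most of the Ccl4 UMIs lie in 1 cell of each HI library.

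With all members, the next genes by p did not pass the adjusted threshold, though both HI libraries lay beyond both naive libraries in each. On the higher side these were Dgat1, which completes triglyceride synthesis, Igfbp6, Lcn2, Prok2, the receptor Lilr4b, Hdc, Ifitm1 and the transglutaminase Tgm1. Their log2 differences were 2.54 to 4.53, with edgeR adjusted p of 0.0541 to 0.107. On the lower side they included Cd101, Zcchc11, Palm, Amica1, Rab33b, Rnase6 and Clec12a. Cd101, a surface protein that marks fully mature mouse neutrophils, had 14.7 CPM in HI 1 and 2.66 CPM in HI 2, against 81.7 CPM in naive 1 and 196 CPM in naive 2 (log2 difference −3.74, edgeR adjusted p = 0.107).

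Without the 13 cells with C1q, 80 of 1754 genes passed (4.56%), 66 higher (3.76%) and 14 lower (0.798%), and 421 had an unadjusted p under 0.05. All 80 had the same sign with all members. The 80 include S100a8 and S100a9, whose calls are no result because the definition used them, which leaves 78 genes, 64 of them higher. Of these 78, 70 had an unadjusted p under 0.05 with all members, 38 also passed when each library was left out in turn, and 48 also passed without the class II cell of naive 1. The fit without that cell called 60 of 1710 genes (3.51%), 42 higher and 18 lower, so that its share of lower calls was larger. Both conditions held for 30 genes, all higher in HI. These 30 were Wfdc17, Igfbp6, Dgat1, Ccrl2, Chil3, Lcn2, Gk, Cd177, Ets2, Plscr1, Ifitm6, Flot2, Prok2, Ifitm1, Qsox1, Hdc, Lrg1, App, Klhdc4, Lilr4b, Il1r2, Azin1, 2010005H15Rik, Tspo, Ifitm2, Stfa3, Fth1, Wfdc21, Srgn and Gm5483. The values that follow are over the members without C1q unless stated.

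Lcn2, which encodes lipocalin 2, a protein of specific granules that binds bacterial siderophores, had 8171 CPM in HI 1 and 11163 CPM in HI 2, against 1051 CPM in naive 1 and 1051 CPM in naive 2. Its log2 fold change was 3.60 ± 0.25 (SE, edgeR adjusted p = 0.000406), and with all members it was 3.58 and did not pass (edgeR adjusted p = 0.0883). The median member had 43 UMIs in HI 1 and 62 in HI 2, against 3 in naive 1 and 2 in naive 2. At 3000 UMIs a cell it was seen in 93.0% and 100% of members in HI 1 and HI 2, against 53.8% and 54.3% in naive 1 and naive 2, and in at most 0.427% of macrophages. Lcn2 is also an immature neutrophil marker: the 7 such markers outside the definition summed to 8200 and 11223 CPM in HI 1 and HI 2, against 1166 and 1293 CPM in naive 1 and naive 2, and the 6 other than Lcn2 to 29.0 and 60.1 CPM in HI 1 and HI 2, against 115 and 243 CPM in naive 1 and naive 2.

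Lrg1, a leucine-rich glycoprotein that neutrophils store and release, had 2508 CPM in HI 1 and 3204 CPM in HI 2, against 756 CPM in naive 1 and 448 CPM in naive 2 (log2 fold change 2.66 ± 0.35, edgeR adjusted p = 0.0103). Prok2, a prokineticin that neutrophils and monocytes release, had 1712 CPM in HI 1 and 1397 CPM in HI 2, against 378 CPM in naive 1 and 213 CPM in naive 2 (2.83 ± 0.39, edgeR adjusted p = 0.0103). Both are label markers that the definition did not use, and neither had overlapping groups. In macrophages the thinned share of Lrg1 was 1.31% in HI 1 and 2.01% in HI 2. It was 0.0513% in naive 1 and 0.0647% in naive 2, so Lrg1 was also seen more often in macrophages after HI. The thinned share of Prok2 in macrophages was at most 0.0197%. These macrophage shares carry no test.

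The promoters of Wfdc17, Lcn2 and Lrg1 are shown because the results turn on these 3 of the 30 genes. Each run is 250 bases before to 50 bases after the annotated start, 5′ to 3′ on the gene's strand, from RefSeq on GRCm38.p6. Capitals mark matches, on either strand, to 4 short motifs: TTGCNNAA (C/EBP), TTCNNNGAA (STAT), GGG and CC with 5 bases between them (NF-kB) and ACGTG (hypoxia response). The Wfdc17 promoter lies at chr11:83703806-83704105 on the plus strand and holds no match. The Lcn2 promoter lies at chr2:32387690-32387989 on the minus strand, with a C/EBP match at base 35 and an NF-kB match at base 149, counted from the 5′ end. The Lrg1 promoter lies at chr17:56121897-56122196 on the minus strand, with a hypoxia match at base 25 and an NF-kB match at base 217.
Wfdc17: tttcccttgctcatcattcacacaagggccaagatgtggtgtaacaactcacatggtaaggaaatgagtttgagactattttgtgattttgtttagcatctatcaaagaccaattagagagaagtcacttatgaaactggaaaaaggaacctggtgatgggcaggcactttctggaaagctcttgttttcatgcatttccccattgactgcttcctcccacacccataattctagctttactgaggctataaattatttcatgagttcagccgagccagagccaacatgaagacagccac
Lcn2: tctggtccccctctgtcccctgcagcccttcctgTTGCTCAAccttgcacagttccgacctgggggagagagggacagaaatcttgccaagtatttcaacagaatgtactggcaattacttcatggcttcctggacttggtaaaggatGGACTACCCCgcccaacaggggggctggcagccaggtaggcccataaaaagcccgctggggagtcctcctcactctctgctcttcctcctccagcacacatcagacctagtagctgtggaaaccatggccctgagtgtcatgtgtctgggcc
Lrg1: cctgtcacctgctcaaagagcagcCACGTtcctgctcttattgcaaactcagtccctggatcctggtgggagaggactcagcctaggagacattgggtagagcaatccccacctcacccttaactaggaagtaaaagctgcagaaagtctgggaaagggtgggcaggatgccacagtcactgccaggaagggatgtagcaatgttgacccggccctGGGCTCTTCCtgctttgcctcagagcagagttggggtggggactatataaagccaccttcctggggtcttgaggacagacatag

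Promoters were found for 24 of the 30 genes. Of these 24, 1 (Lcn2) held the C/EBP motif, against 10.8% of all 32851 promoters of the same length. The STAT motif was in 5 (20.8%) against 8.30% of all promoters, the NF-kB motif in 13 (54.2%) against 50.8%, and the hypoxia motif in 6 (25%) against 19.6%. A match is a run of letters and not a site in use.

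The lists that follow were grouped by function, and each count is read against the 3.76% of all tested genes that were higher and the 0.798% that were lower without the C1q cells, where the median log2 difference of all tested genes was 0.03. In the list of STAT3 targets and acute-phase genes, 6 of 11 tested were higher and none lower, with a median log2 difference of 2.16: Lcn2, Lrg1, the kinase Pim1, the signalling inhibitor Socs3, the cytokine Osm and the metalloreductase Steap4. Without the class II cell 3 of 11 passed (Lcn2, Lrg1 and Pim1). Pim1 had 713 CPM in HI 1 and 364 CPM in HI 2, against 164 CPM in naive 1 and 125 CPM in naive 2 (2.33 ± 0.49, edgeR adjusted p = 0.0452). Socs3, like Lrg1, was also seen more often in macrophages after HI. Its thinned share there was 2.84% in HI 1 and 3.95% in HI 2, against 0.872% in naive 1 and 0.561% in naive 2. That of Osm overlapped, at 2.60% in HI 1 and 2.63% in HI 2, against 2.85% in naive 1 and 2.37% in naive 2.

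Granule genes moved both ways. Of 8 specific granule genes tested that the definition did not use, Lcn2, Chil3 and Cd177 were higher and Lyz2 and Cybb lower. Cd177, a surface protein of the specific granule that binds endothelial PECAM1, had 319 CPM in HI 1 and 715 CPM in HI 2, against 16.4 CPM in naive 1 and 118 CPM in naive 2 (log2 fold change 3.14 ± 0.69, edgeR adjusted p = 0.0463). Chil3 had 100 UMIs in HI and 3 in naive members, a ratio of 12.2 with all members (Clopper-Pearson interval 4.04 to 59.9, which covers counting of UMIs and not the spread between cells or pools). Of the genes used by the definition, Ngp had 460 and 561 CPM in HI 1 and HI 2, against 16.4 and 184 CPM in naive 1 and naive 2, and Camp had 133 and 257 CPM in HI 1 and HI 2, against 32.9 and 73.5 CPM in naive 1 and naive 2, both given as a description. The part of such immature RNA in the values of Lcn2, Chil3 and Cd177 was not tested.

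Lyz2, the lysozyme of myeloid cells, fell: it had 866 CPM in HI 1 and 1477 CPM in HI 2, against 4074 CPM in naive 1 and 5659 CPM in naive 2 (log2 fold change −1.65 ± 0.32, edgeR adjusted p = 0.0372). Cybb fell to 33.2 CPM in HI 1 and 33.4 CPM in HI 2, against 164 CPM in naive 1 and 206 CPM in naive 2 (−2.07 ± 0.44, edgeR adjusted p = 0.0463). It was the 1 lower gene of 9 tested in the NADPH oxidase list, none of which was higher, and Ncf1, a cytosolic subunit of the same enzyme, had a log2 difference of −0.20 that did not pass. Lyz2 and Cybb passed without the class II cell but not in every fit that left out a library, and with all members their edgeR adjusted p were 0.358 and 0.203.

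In the list of gelatinase and secretory granule genes 6 of 13 were higher, among them Wfdc17, Wfdc21, the formyl peptide receptor ligand Anxa1 and 3 stefins, and without the class II cell 4 were higher and Slpi was lower. Anxa1 had 2442 CPM in HI 1 and 3077 CPM in HI 2, against 1216 CPM in naive 1 and 1646 CPM in naive 2 (1.35 ± 0.27, edgeR adjusted p = 0.0391). Mmp9, the gelatinase of these granules, did not pass, with a log2 difference of −0.10. The collagenase Mmp8, which is on the specific granule list, did not pass either, with a log2 difference of 1.39. Outside this list, the stefin 2010005H15Rik had 13557 CPM in HI 1 and 11915 CPM in HI 2, against 3582 CPM in naive 1 and 4123 CPM in naive 2 (2.13 ± 0.19, edgeR adjusted p = 0.00185). Stfa3 had 6356 and 6121 CPM in HI 1 and HI 2, against 2349 and 2205 CPM in naive 1 and naive 2 (1.86 ± 0.22). Stfa1 did not pass. Its CPM, which lack the scaling between libraries that enters the fold changes, overlapped between groups. They were 41657 and 43860 in HI 1 and HI 2, against 37163 and 45292 in naive 1 and naive 2. Stefin A genes are near-identical copies, and how the deposited counts divide reads among them is uncertain.

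In the interferon list 4 of 13 tested were higher and all 4 were interferon-induced transmembrane proteins, which restrict virus entry. Ifitm1 had 5153 CPM in HI 1 and 4200 CPM in HI 2, against 789 CPM in naive 1 and 970 CPM in naive 2 (log2 fold change 2.81 ± 0.26, edgeR adjusted p = 0.00185). Ifitm6 had 2326 CPM in HI 1 and 3288 CPM in HI 2, against 444 CPM in naive 1 and 551 CPM in naive 2 (2.89 ± 0.31, edgeR adjusted p = 0.00437). Ifitm2 and Ifitm3 were higher with log2 fold changes of 1.87 and 1.40, and Ifitm3 did not pass without the class II cell (edgeR adjusted p = 0.0611). No other gene of the list passed: Irf7 had a log2 difference of −0.12 and Oasl2 of 0.78. Over the 13 tested genes the median was 0.78, and 9 were positive. With all members Trim30a had a log2 difference of 1.82 that did not pass, with groups that did not overlap. Its HI effect differed from that in non-classical monocytes in the test described below (edgeR adjusted p = 0.0495). Isg15, which was not tested, had 62.2 and 40.1 CPM in HI 1 and HI 2, against 49.3 and 36.7 CPM in naive 1 and naive 2. Members of the Ifitm family share sequence, and their counts are uncertain to that extent.

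**Figure D3:**
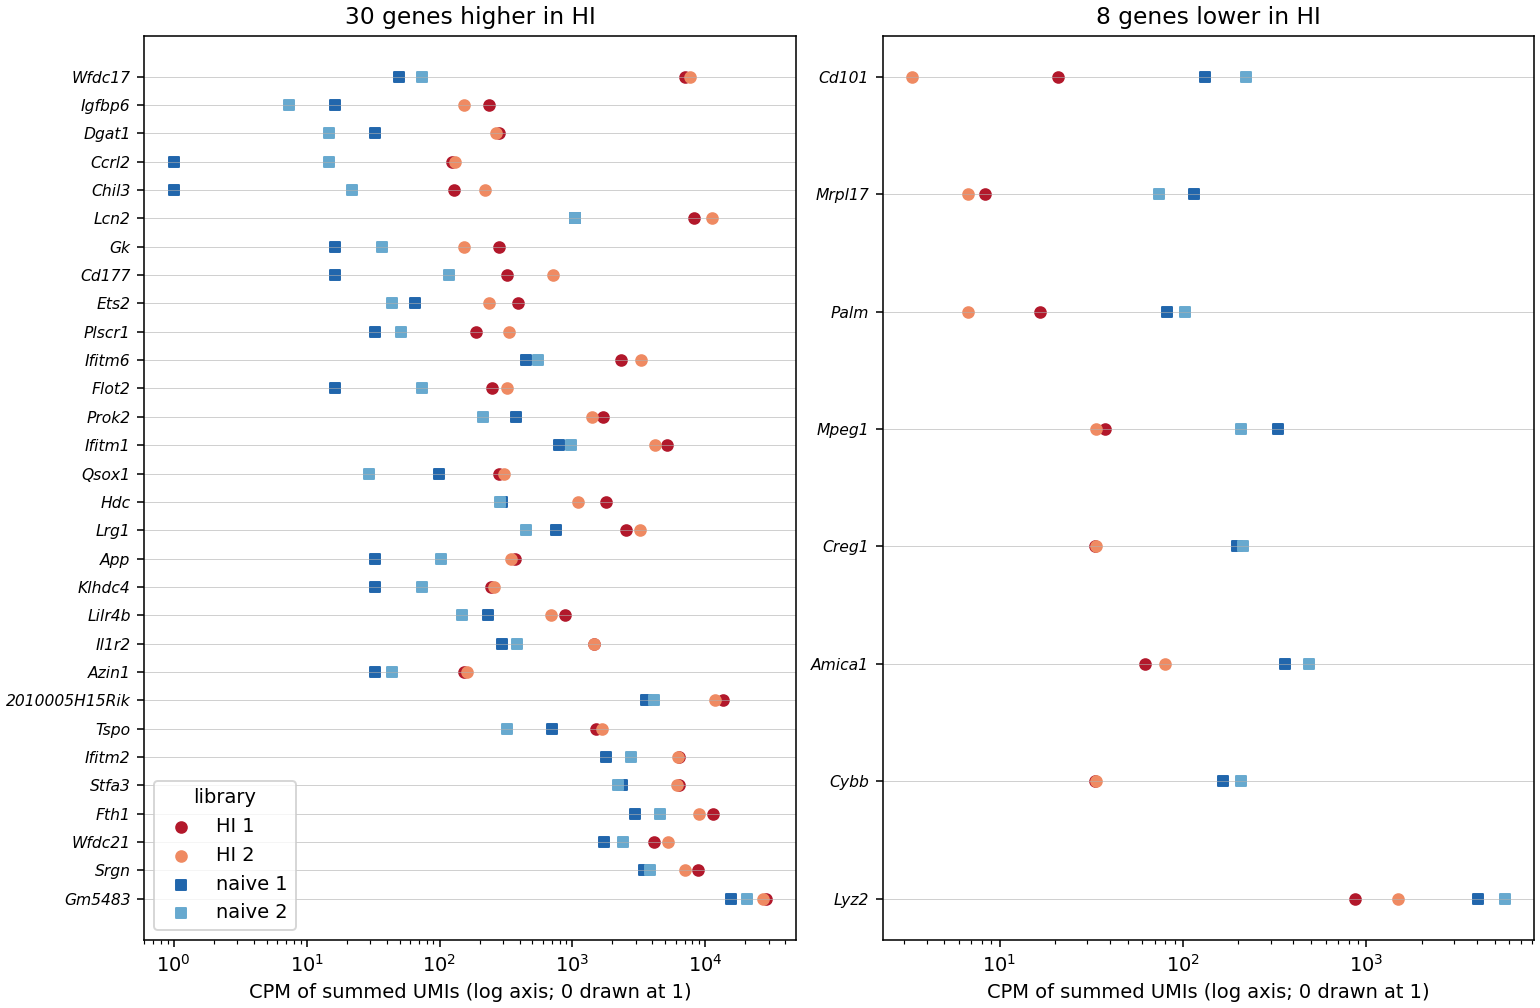
CPM in each library over the members without C1q (log axis, 0 drawn at 1), for the 30 higher genes that passed throughout (left) and 8 lower genes that passed without the class II cell (right). For each gene both HI libraries lie on the same side of both naive libraries, and the distance is widest for Wfdc17.

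Among the interleukin-1 and Toll-like receptor genes, 2 of 14 were higher, Il1r2 and Casp4. Il1r2, which binds interleukin-1 without signalling, had 1443 CPM in HI 1 and 1447 CPM in HI 2, against 296 CPM in naive 1 and 382 CPM in naive 2 (log2 fold change 2.48 ± 0.32, edgeR adjusted p = 0.0103). Il1b itself had 4312 CPM in HI 1 and 1280 CPM in HI 2, against 821 CPM in naive 1 and 830 CPM in naive 2 and did not pass (2.16 ± 0.52, edgeR adjusted p = 0.0628). Cd14, the lipopolysaccharide co-receptor, had 4490 CPM in HI 1 and 1443 CPM in HI 2, against 838 CPM in naive 1 and 29.4 CPM in naive 2 (3.26 ± 1.12, edgeR adjusted p = 0.134).

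Secreted chemokines and cytokines had a median log2 difference of 2.33 over 10 tested genes, of which Ccl4 and Osm were higher, and neither passed without the class II cell. Cxcl2, which recruits further neutrophils through CXCR2, had 3317 CPM in HI 1 and 1630 CPM in HI 2, against 706 CPM in naive 1 and 7.35 CPM in naive 2 and did not pass (3.31 ± 1.17, edgeR adjusted p = 0.141). One cell held all 43 Cxcl2 UMIs of naive 1. At 3000 UMIs a cell Cxcl2 was seen in 55.8% of members in HI 1 and 16.4% in HI 2, against 7.69% in naive 1 and 0% in naive 2, and in at most 0.367% of macrophages. The 2 HI libraries differed from each other in Cxcl2, Il1b, Cd14, Osm and Irg1, with HI 1 above HI 2 in each. Irg1, now named Acod1, which makes itaconate, had 987 CPM in HI 1 and 327 CPM in HI 2, against 82.1 CPM in naive 1 and 0 CPM in naive 2 (4.87 ± 1.09, edgeR adjusted p = 0.0470), and 1 cell held all 5 naive UMIs. Irg1 was not called without the class II cell. Ccl6 was lower without the class II cell (log2 fold change −1.41, edgeR adjusted p = 0.0443) and had 2019 and 1226 CPM in HI 1 and HI 2, against 4173 and 4990 CPM in naive 1 and naive 2, with the class II cell in.

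Receptors that steer neutrophils were mostly not separated. Of 16 chemoattractant and growth factor receptors, 1 was higher: Ccrl2, which presents chemerin without signalling, had 72 UMIs in HI and 2 in naive members, a ratio of 13.1 with all members (Clopper-Pearson interval 3.51 to 110, again for counting of UMIs only). Cxcr2 had 1182 CPM in HI 1 and 1056 CPM in HI 2, against 476 CPM in naive 1 and 1022 CPM in naive 2, a log2 difference of 0.97 that did not pass. Cxcr4, the receptor for marrow retention that also rises on ageing neutrophils, had 41.5 CPM in HI 1 and 53.5 CPM in HI 2, against 115 CPM in naive 1 and 140 CPM in naive 2 (−1.02, edgeR adjusted p = 0.206). Csf3r, the granulocyte colony-stimulating factor receptor, had a log2 difference of −0.12. None of 6 neutrophil aging genes passed in either direction.

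Metabolic and stress genes were few among the calls. Dgat1 had 278 CPM in HI 1 and 267 CPM in HI 2, against 32.9 CPM in naive 1 and 14.7 CPM in naive 2 (log2 fold change 4.07 ± 0.56, edgeR adjusted p = 0.0103). Fth1, the ferritin heavy chain that stores iron, had 11414 CPM in HI 1 and 8944 CPM in HI 2, against 2974 CPM in naive 1 and 4534 CPM in naive 2 (1.85 ± 0.25, edgeR adjusted p = 0.0103), whereas the light chain Ftl1 had a log2 difference of −0.14 that did not pass. Hdc, which makes histamine, had 1774 CPM in HI 1 and 1099 CPM in HI 2, against 296 CPM in naive 1 and 287 CPM in naive 2 (2.71 ± 0.37, edgeR adjusted p = 0.0103). Alox5ap, needed for leukotriene synthesis, was higher by 1.3 on the log2 scale (edgeR adjusted p = 0.0294), and with Hdc it made 2 of 6 in the lipid and mediator list.

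Hypoxia genes had few UMIs. Hif1a, the oxygen-regulated transcription factor subunit, had 153 CPM in HI 1 and 150 CPM in HI 2, against 16.4 CPM in naive 1 and 44.1 CPM in naive 2 (2.53 ± 0.55, edgeR adjusted p = 0.0463). It was the 1 of 3 tested hypoxia genes that passed, and it did not pass without the class II cell (edgeR adjusted p = 0.0624). Hilpda, a hypoxia-inducible lipid droplet protein outside that list, had 92 UMIs in HI and 0 in naive members, at least 11.2-fold higher with all members against 3 counts over the summed naive group. It was seen in 20.9% and 4.92% of members in HI 1 and HI 2 at 3000 UMIs a cell and in 3.39% to 4.13% of macrophages, and 0 of 35 cells in naive 2 allows a share of cells with a UMI at that depth of up to 8.57%. Upp1, a uridine phosphorylase, had 74 UMIs in HI and 0 in naive members, at least 9.0-fold higher. Neither Hilpda nor Upp1 was called without the class II cell. None of 15 glycolysis genes passed (median log2 difference 0.28).

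Most of the other lists held few or no calls without the C1q cells, and the glucocorticoid list was the exception. In the glucocorticoid list 4 of 8 were higher, Dusp1, Il1r2, Anxa1 and Lcn2, the last 3 shared with lists above. Without the class II cell the same 4 were higher, of 7 tested. In the Fc receptor and phagocytosis list 3 of 14 were higher: the near-identical receptors Lilr4b and Lilrb4a and the lectin Clec4e. Only 1 (Lilr4b) was higher without the class II cell. The NF-kB list gave 1 of 8 (Ier3), the AP-1 list 1 of 10 (Junb), the circadian list 1 of 2 (Bhlhe40) and the transcription factor list 1 of 6 (again Bhlhe40), and none of these 3 genes passed without the class II cell. None of 13 actin, 11 mitochondrially encoded, 8 survival, 5 unfolded protein response and 4 histocompatibility genes passed in either direction.

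Cytosolic ribosomal protein genes differed mainly between the naive libraries. Their summed level was 12321 CPM in HI 1 and 18340 CPM in HI 2, against 70350 CPM in naive 1 and 27544 CPM in naive 2. None of 75 tested passed, with a median log2 difference of −1.41 and 1 positive value. Without the class II cell the median was −0.44 over 70 tested genes, of which 12 were positive, so that 1 cell of naive 1 moved the list.

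Of the called genes 14 were lower after HI, and 18 without the class II cell, but none of the 14 passed both in every fit without 1 library and without the class II cell. Cd101 had 20.7 CPM in HI 1 and 3.34 CPM in HI 2, against 131 CPM in naive 1 and 220 CPM in naive 2 (log2 fold change −3.55 ± 0.67, edgeR adjusted p = 0.0367). At 3000 UMIs a cell it was seen in 4.65% and 1.64% of members in HI 1 and HI 2, against 38.5% and 40% in naive 1 and naive 2, and in at most 0.667% of macrophages. Amica1, which helps leukocytes cross endothelium, had 62.2 CPM in HI 1 and 80.2 CPM in HI 2, against 361 CPM in naive 1 and 485 CPM in naive 2 (−2.16 ± 0.40, edgeR adjusted p = 0.0367). The palmitoylated membrane protein Palm had 16.6 and 6.68 CPM in HI 1 and HI 2, against 82.1 and 103 CPM in naive 1 and naive 2. Mpeg1, a pore-forming protein of phagocytes, had 37.3 and 33.4 CPM in HI 1 and HI 2, against 329 and 206 CPM in naive 1 and naive 2, and with all members its groups overlapped. Cd101, Amica1, Palm, Mpeg1, Creg1, Mrpl17, Cybb and Lyz2 were 8 of the 9 that passed without the class II cell. Psmb8, Psme2, Rnase6, Rnf187 and Anp32b did not pass there or were not tested. A gene with too few UMIs to be tested in a fit counts here as not passed.

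The HI effect in members was then tested against that in 2 other myeloid classes of the same libraries, as an interaction in edgeR with all members. Immature neutrophils were not among these classes, so whether they share an effect was not tested. Against the 1233 non-classical monocytes, 39 of 7152 genes passed (0.545%, 35 higher and 4 lower in the difference), with 488 at an unadjusted p under 0.05. Against the 16874 macrophages, 66 of 12644 passed (0.522%, 58 higher and 8 lower), with 611 unadjusted. Of these calls, 33 and 53 also passed without the C1q cells. In the monocyte comparison 10 genes passed without HI 1, 38 without HI 2, 14 without naive 1 and 85 without naive 2. In the macrophage comparison 5 passed without HI 1, 27 without HI 2, 1 without naive 2 and 0 without naive 1, where edgeR gave 566 at an unadjusted p under 0.05. Wfdc17 differed from monocytes in each of these fits, and from macrophages in all but the 2 that left out a naive library (edgeR adjusted p = 0.540 without naive 1 and 0.179 without naive 2).

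Both comparisons called 25 genes, 22 higher and 3 lower, and 14 of them had groups that did not overlap and more than 3 UMIs in each group. Wfdc17 had an HI effect of 7.26 ± 0.70 in mature neutrophils, 0.50 ± 0.16 in non-classical monocytes and 0.19 ± 0.26 in macrophages on the log2 scale. Dgat1 had 3.84 ± 0.55 in mature neutrophils, 0.03 ± 0.26 in monocytes and −0.03 ± 0.08 in macrophages. Ifitm6 had 2.87 ± 0.56 in mature neutrophils, 0.03 ± 0.09 in monocytes and −0.54 ± 0.20 in macrophages. Hif1a had 2.71 ± 0.52 in mature neutrophils, 0.32 ± 0.15 in monocytes and −0.04 ± 0.08 in macrophages. The transcription factor Ets2, the sulfhydryl oxidase Qsox1, Klhdc4, Pim1, Osm, Csrnp1, Cd14, Irg1, Bcl2a1b and Stfa3 made up the other 10. The 3 lower genes, H2-Aa, H2-Ab1 and H2-Eb1, had no UMI in HI 1, HI 2 or naive 2, against 217, 138 and 123 UMIs in naive 1, and 1 cell, the class II cell, held 100%, 99.3% and 100% of these. Their groups overlapped, and the calls rest on that cell.

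**Figure D4:**
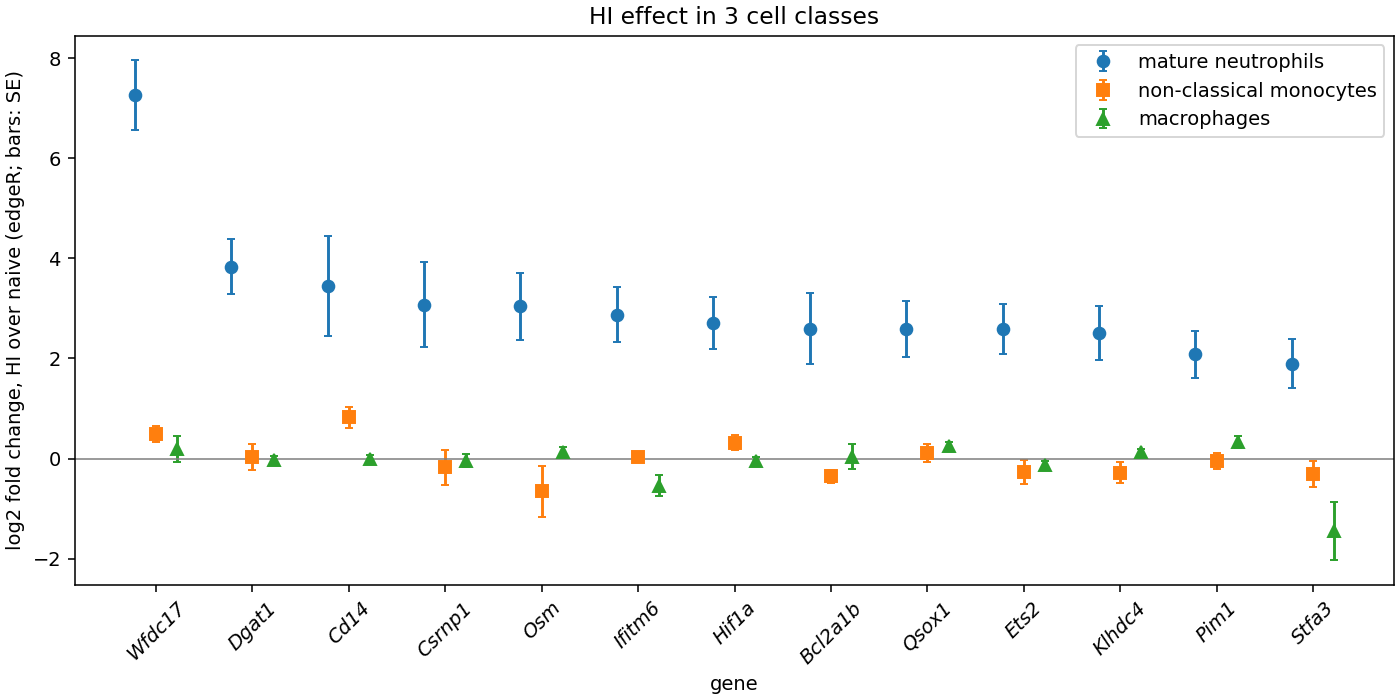
HI effect (log2 fold change, HI over naive, bars are SE from edgeR) in mature neutrophils, non-classical monocytes and macrophages for 13 genes that both interaction tests called. The neutrophil values lie between 1.89 and 7.26, above those of both other classes for each gene shown, and Irg1 is left out because it was not tested in the other classes alone.

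Receptor contigs were also matched to the members by barcode, in the receptor library of the same condition and number. Of the 152 members, 4 (2.63%) shared a barcode with a B-cell receptor contig, 1 in HI 1 and 1 in HI 2, against 2 in naive 1 and 0 in naive 2, and none of these contigs was productive. The share was 6.54% in macrophages and 10.3% in all kept cells. In naive 1 it was 15.4% of members and 16.0% of all kept cells. No member had a T-cell receptor contig, against 0.0948% of macrophages and 1.54% of all kept cells. Macrophages carry B-cell receptor contigs too, and at these shares few contigs could be seen among 152 cells. Identity therefore cannot be judged from the contigs.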

How the data were processed

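Meningeal single cells of 2 HI and 2 naive pools were measured by 10x 5' gene expression, and the paired receptor libraries were used for 1 check. The deposited gene expression values are raw counts, 1 whole number of UMIs for each gene in each barcode, and the deposited receptor values are counts per contig. The tools Cell Ranger 2.2.0 and Seurat and the builds mm10 and GRCm38 are named in the submitters' processing notes. Which step used which is not given in the sources used here, nor is how barcodes were called.

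Kept barcodes had 200 genes or more and no more than 10% mitochondrial UMIs. UMIs of members were summed per library and tested with edgeR 4.0.16 (R 4.3.3; TMM, filterByExpr, quasi-likelihood, Benjamini-Hochberg adjustment, threshold 0.05). CPM are sums per 1000000 member UMIs, without the TMM factors that enter the fold changes. Without C1q members these factors were 0.842 in HI 1 and 0.847 in HI 2, against 1.18 in naive 1 and 1.19 in naive 2. Fold changes therefore lie above the ratios of CPM. The interaction fits had a term per library. Non-classical monocytes had at least 2 UMIs of their markers and under 10 of C1q, and macrophages at least 20 of C1q and 3 of Mrc1 and Pf4. Detection was compared after thinning each cell to 3000 UMIs, and no cell was shallower. Doublets were scored with Scrublet (scanpy 1.11.5) and those at the top 0.8% per 1000 barcodes left out in an alternative. DESeq2 1.42.0 was the other tool. Tests were tried on simulated counts. The range of 51986763 to 68543046 UMIs per library and the small number of members limit the precision.

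The members and gene lists were chosen with earlier results of these data known. Named genes are those past the threshold with groups that do not overlap, ordered by fold change and limited to 15 in each direction, with the 8 of smallest p given as not passed where a direction has fewer than 5, plus the called and highest genes of each list. The alternatives with 4000 and 5000 UMIs, without the class II cell, and the C1q exclusion in the block and interaction fits were chosen after seeing the data. Whether replicate numbers pair samples is not stated, and the correlation of same-numbered deviations was 0.19 for all members. Itgam, Cebpd, Mx2 and Clec7a are not used here, and a few genes are not reported here.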

Additional observations from a re-analysis of the deposited data

Results flagged for a closer look

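For some genes the effect of HI in mature neutrophils differed from that in another class by the interaction test, with groups that did not overlap and more than 3 UMIs in each. Against non-classical monocytes the log2 difference of the effects was 7.0 for Wfdc17, 5.58 for Irg1, 4.07 for Dgat1, 3.63 for Osm and −8.02 for Ptgds. Against macrophages it was 8.35 for Irg1, 7.30 for Wfdc17, 4.18 for Dgat1, 4.02 for Cd14, −3.59 for Crip1 and −2.28 for Fgl2.

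Ptgds had 4 UMIs in HI and 12 in naive members, so its value comes mostly from the monocytes, and 1 cell held all of its UMIs in naive 2. One cell of naive 1 held 88.9% of that library's Crip1 UMIs. Fgl2 was spread more widely, with 61.9 CPM in HI 1 and 93.1 CPM in HI 2, against 174 CPM in naive 1 and 258 CPM in naive 2. The 5 naive UMIs of Irg1 lay in 1 cell.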

How the results depend on the processing

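The share of mature neutrophils was higher in HI under every alternative run, by 0.359 to 0.695 percentage points of kept cells, or 2.70 points with macrophages out of the denominator, and by 0.398 to 0.732 points with 1 library left out. The number of genes called between HI and naive with all members was 2. It was 4 with DESeq2's size factors, 0 with no filter on low counts (edgeR, 522 unadjusted), 1 without the highest Scrublet scores, 1 with Camp, Ltf and Ngp under 10, 12 with members of at least 4000 UMIs, 45 with DESeq2 (40 shared with the 80), 84 with members thinned to 3000 UMIs (62 shared), 80 without C1q members, 60 (42 higher and 18 lower) also without the class II cell, and 22 to 281 with 1 library left out. With the replicate number as a block it was 105 (55 shared with the 80), and 194 without C1q members and with the block. Same-numbered libraries deviated together at a correlation of 0.19, and −0.08 without C1q members, and the labels give no pairing, so the block is given here as a count. The monocyte interaction called 39 genes, 68 with no filter on low counts, 107 without C1q members and 10 to 85 with 1 library left out. The macrophage interaction called 66, 35 without the highest Scrublet scores and 0 to 27 with 1 library left out. The cause of these moves was not tested. Of the 18 genes followed through these alternatives, none changed sign where it was tested. With a library left out, the lone sample of its group is assumed to vary as the other group does. The number of cells limits the rarest genes: 0 of 35 cells with a UMI, at 3000 UMIs a cell, allows a detected share of up to 8.57%.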

Other observations

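Several highly expressed genes of the members were not on any list. Srgn, the proteoglycan core of secretory granules, had 8797 CPM in HI 1 and 7047 CPM in HI 2, against 3483 CPM in naive 1 and 3821 CPM in naive 2 (members without C1q, log2 fold change 1.52 ± 0.21, edgeR adjusted p = 0.0105). Tspo, a mitochondrial outer membrane protein used as an imaging target of inflammation, had 1513 CPM in HI 1 and 1681 CPM in HI 2, against 706 CPM in naive 1 and 323 CPM in naive 2 (2.06 ± 0.42, edgeR adjusted p = 0.0416). Igfbp6 had 236 and 154 CPM in HI 1 and HI 2, against 16.4 and 7.35 CPM in naive 1 and naive 2. In macrophages the thinned share of Igfbp6 was 1.59% in HI 1 and 1.95% in HI 2. It was 0.616% in naive 1 and 0.410% in naive 2, so Igfbp6 was also seen more often in macrophages after HI. With all members Gm42418, a transcript that overlaps ribosomal RNA, had 5918 CPM in HI 1 and 5155 CPM in HI 2, against 25986 CPM in naive 1 and 4997 CPM in naive 2. With all members Spp1 had 9131 CPM in HI 1 and 26.6 CPM in HI 2, against 40.9 CPM in naive 1 and 0 CPM in naive 2, and 1 cell held 97.3% of its UMIs in HI 1.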
